A study of Mus musculus with 22 samples.

Results

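The genes described here are the Wnt ligands and the receptors that receive them: 19 Wnt ligand genes, 10 Frizzled receptor genes and 3 genes for kinase-type receptors, Ror1, Ror2 and Ryk. These 32 genes were taken by name from 22208 protein-coding genes on mouse chromosomes 1 to 19 and X. For each gene, transcription factor sites with their centre within 100 kb of an annotated start were counted, and histone mark regions lying over a start were recorded. No measured value entered the list of genes, but it was chosen with earlier results of these data known.

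Wnt proteins are secreted, lipid-modified ligands that bind Frizzled receptors on the surface of a neighbouring or the same cell. With the co-receptors Lrp5 or Lrp6, a Wnt bound to a Frizzled stabilizes beta-catenin, which drives osteoblast formation and bone mass, whereas Ror and Ryk receptors mostly serve routes that do not use beta-catenin. Calcitriol, the hormonal form of vitamin D, acts through the vitamin D receptor (VDR), which binds DNA together with the retinoid X receptor (RXR), and in bone-forming cells often near RUNX2, the osteoblast master regulator, and C/EBPβ.

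Chromatin immunoprecipitation sequencing, which maps the DNA bound by a protein or carrying a histone mark, was done in MC3T3-E1 cells, a mouse pre-osteoblast line, at passages 5 to 12. Cells were either undifferentiated or kept for 15 days with ascorbic acid and glycerol-2-phosphate, and all received either ethanol vehicle or 100 nM calcitriol during the last 3 h. The data are 22 region lists, with 1 list per combination of antibody, state and treatment: VDR and RXR with vehicle and with calcitriol, and C/EBPβ, RUNX2 and the marks H4K5ac, H3K9ac, H3K4me1, H3K4me3 and H3K36me3 with calcitriol. Vehicle lists of the other antibodies were not analysed here. The model is a single cell line in culture, and only the differentiated cultures were homogenized and passed through sucrose to remove matrix, so preparation and state cannot be told apart. The sample labels name H4K5ac where the protocol text has H3K5Ac; the sample labels were followed.

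The factor lists held between 274 and 17950 sites on the chromosomes used, with 937 VDR sites under vehicle and 7000 under calcitriol in undifferentiated cells, and 274 and 871 in differentiated cells. The lists carry no read counts, so their depth is unknown, and a list has no spread between cultures; differences below are counts set side by side, with no test. H3K9ac lay over a start of 7 of 10 osteoblast marker genes in undifferentiated and 8 of 10 in differentiated cells, and of 0 of 6 blood genes in both; Bglap, the gene for osteocalcin, had no mark over a start in either state. Of the other marker lists, H3K9ac lay over Actn3 among 6 muscle genes, over Col2a1 and Col11a2 among 6 cartilage genes, and over Syn1 among 6 neuron genes in differentiated cells only.

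With calcitriol, undifferentiated cells carried VDR sites around 20 of the 32 Wnt and receptor genes, a share of 62.5%, where 40.9% of all protein-coding genes had one. After 15 days of differentiation 5 genes had a VDR site (15.6%), close to the 12.1% of all genes. RXR, C/EBPβ and RUNX2 sites were found around more of these genes than of genes at large in both states, whereas the marks of active starts were found about as often as elsewhere. Marked starts were more frequent among Frizzled than among ligand genes: H3K9ac lay over 7 of 19 ligand starts and 7 of 10 Frizzled starts in undifferentiated cells.

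In undifferentiated cells with vehicle, VDR sites lay around 9 of the 32 genes, against 15.7% of all genes. RXR sites lay around 22 genes with vehicle (68.8%, all genes 44.3%) and 24 with calcitriol (75.0%, all genes 43.9%). C/EBPβ sites lay around 29 genes (90.6%, all genes 65.9%) and RUNX2 sites around 26 (81.2%, all genes 59.6%). The shares of these genes were thus above the background in all 6 factor lists of undifferentiated cells.

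In differentiated cells with vehicle, a VDR site was left at 1 of the 32 genes, Wnt8b, against 6.15% of all genes. RXR sites lay around 16 genes with vehicle (50.0%, all genes 33.6%) and around 20 with calcitriol (62.5%, all genes 43.8%). C/EBPβ sites lay around 25 genes (78.1%, all genes 61.1%) and RUNX2 sites around 19 (59.4%, all genes 46.5%). The median number of calcitriol RXR sites per gene was 2 in undifferentiated and 1 in differentiated cells, and 0 over all genes in both.

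In undifferentiated cells the same direction was seen for calcitriol VDR sites when the genes were divided by H3K9ac over a start. This split was chosen after the values were seen. Of the 17 genes with H3K9ac in undifferentiated cells, 12 had a calcitriol VDR site, against 54.5% of all genes with this mark. Of the 15 without H3K9ac, 8 had one, against 27.4% of all genes without it. Many of the sites of these unmarked genes lay nearer to other genes. Of their 14 pairs of gene and site, 4 had that gene's start as the nearest. Another 5 lay within 1 kb of another gene's start. For the genes with H3K9ac these numbers were 14 and 3 of 29 pairs. The direction was not kept for marked genes in differentiated cells, where 2 of 18 had a calcitriol VDR site, against 17.1% of all marked genes. Of the 14 without H3K9ac there, 3 had one, against 6.83%, and all 3 sites lay within 1 kb of another gene's start. The window of a gene had a median width of 200 kb both for the 32 genes and for all genes.

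**Figure D1:**
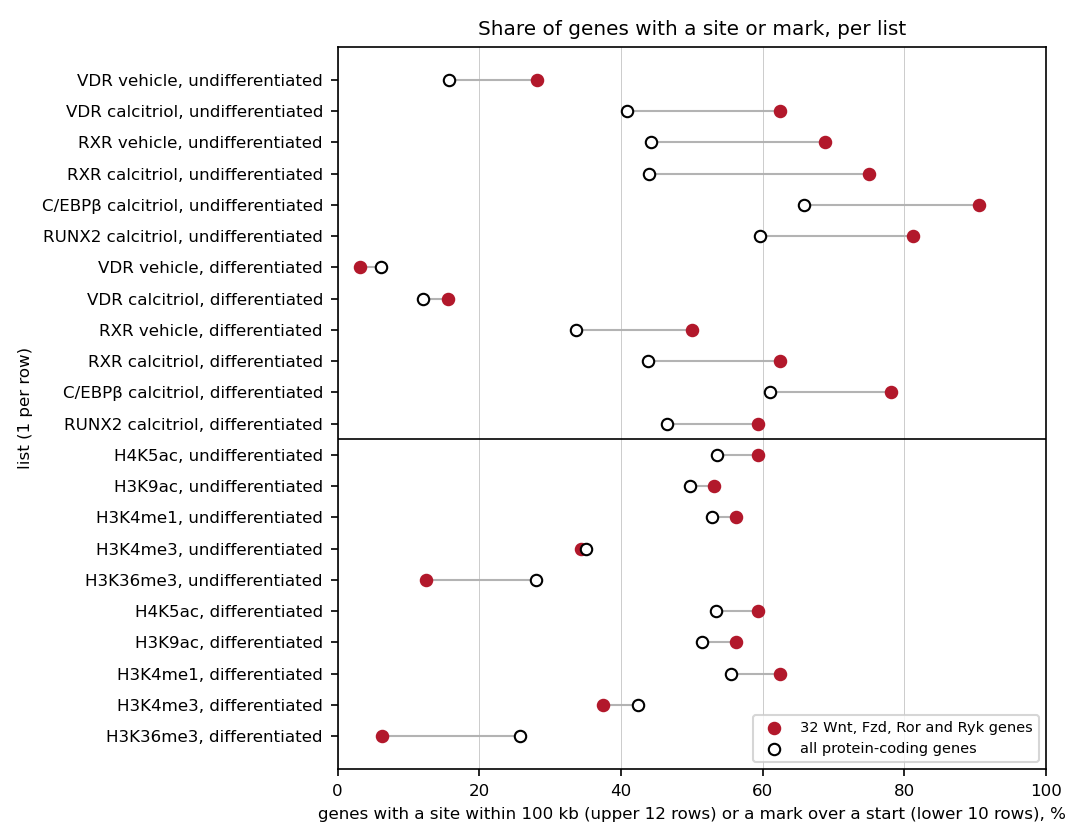
Share of genes (x axis, %) with a factor site within 100 kb or a mark over a start, for each of the 22 lists (y axis); filled points are the 32 Wnt, Fzd, Ror and Ryk genes and open points all 22208 protein-coding genes. The filled points lie to the right of the open points in 11 of the 12 factor lists and close to them in the mark lists other than H3K36me3, where they lie to the left.

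Sites are counted for every gene within reach, and 4 pairs of ligand genes are neighbours that share sites: Wnt6 with Wnt10a, Wnt3a with Wnt9a, Wnt3 with Wnt9b, and Wnt1 with Wnt10b. The 32 genes therefore stand on 28 separate stretches, 18 of which had a calcitriol VDR site in undifferentiated cells. Wnt3, Wnt9b and Fzd10 had no site and no mark over a start in any list. Wnt2 had a single site, of C/EBPβ in undifferentiated cells.

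**Figure D2:**
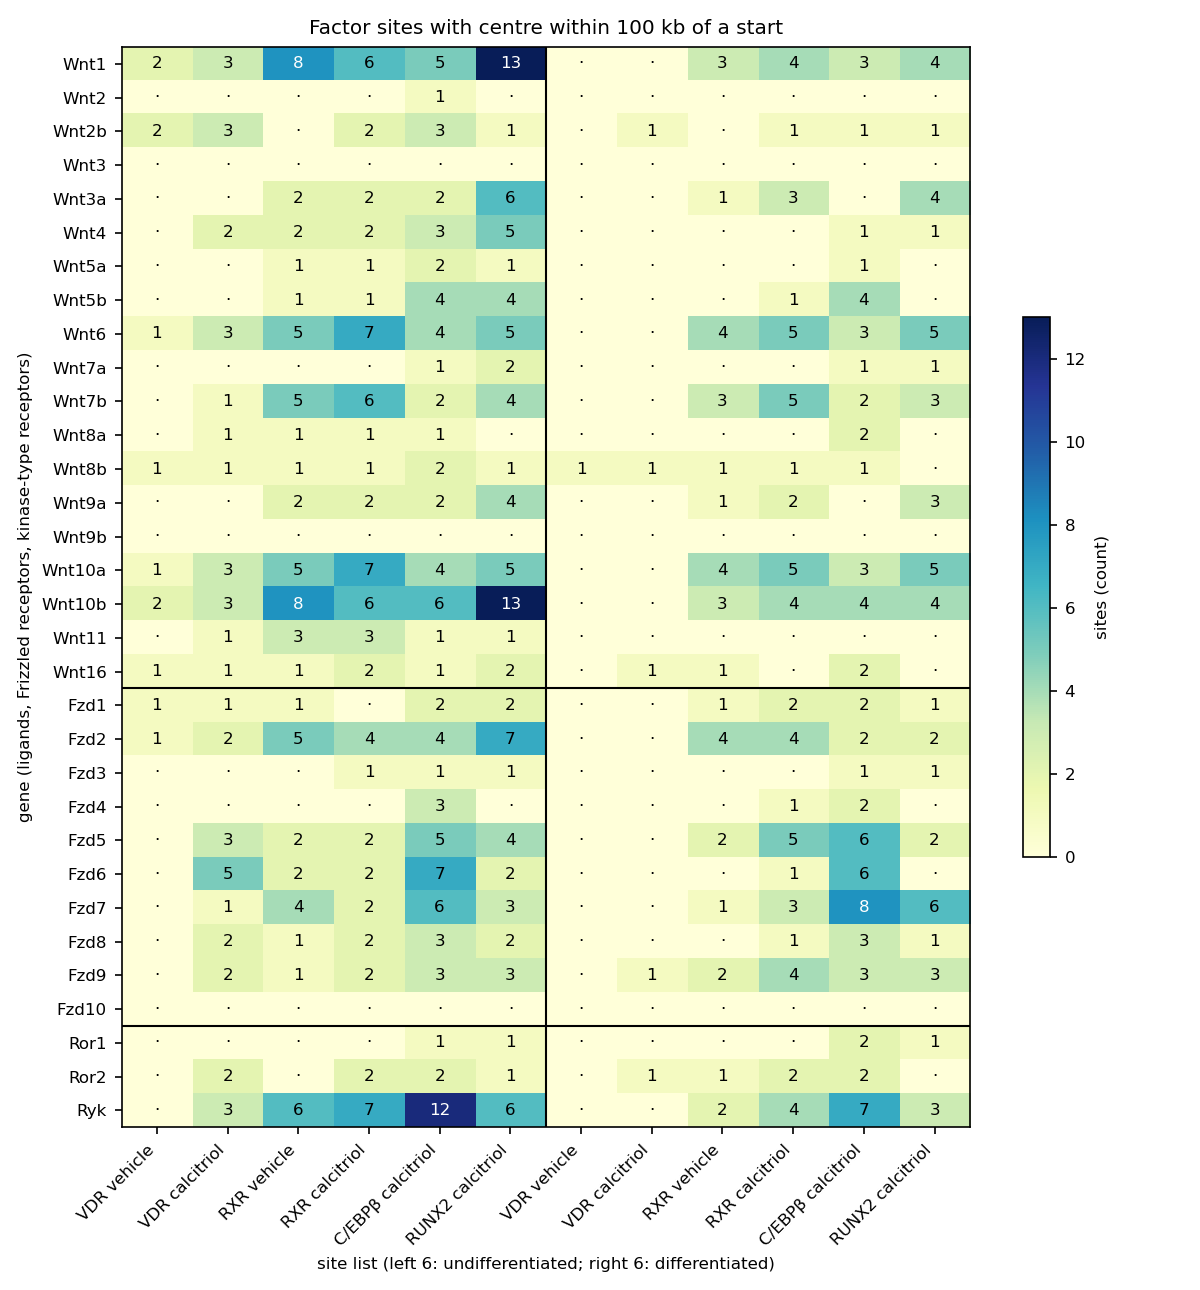
Number of sites with their centre within 100 kb of a start for each of the 32 genes (rows) in each of the 12 factor lists (columns), undifferentiated on the left and differentiated on the right; a dot is 0. Wnt1 and Wnt10b reach 13 RUNX2 sites and Ryk 12 C/EBPβ sites in undifferentiated cells, and both differentiated VDR columns hold no count above 1.

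Among the ligands, the stretch of Wnt1 and Wnt10b on chromosome 15 was the most densely occupied. Wnt10b (chr15:98602184-98608581 in mm9) encodes a ligand that favours osteoblasts over fat cells, and Wnt1 (chr15:98620288-98624268) one whose loss weakens bone. In undifferentiated cells the Wnt10b window held 2 VDR sites with vehicle and 3 with calcitriol, 8 RXR sites with vehicle and 6 with calcitriol, 6 C/EBPβ sites and 13 RUNX2 sites. After 15 days of differentiation it held no VDR site under either treatment, 3 RXR sites with vehicle and 4 with calcitriol, 4 C/EBPβ sites and 4 RUNX2 sites. Wnt1 had the same counts except for 5 and 3 C/EBPβ sites. All 4 of the RUNX2 sites seen after differentiation were among the 13 found before it.

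The RUNX2 sites not called at Wnt10b after differentiation included those at its starts. In undifferentiated cells 6 RUNX2 sites lay within 3 kb of a Wnt10b start, 3 of them within 1 kb, and in differentiated cells none did. With calcitriol, RXR sites within 3 kb numbered 2 and 0 in the same comparison, while 1 C/EBPβ site was found there in both states. Over the 32 genes, RUNX2 lay within 3 kb of a start of 5 genes in undifferentiated cells (Wnt10b, Fzd1, Fzd2, Fzd7 and Fzd8; all genes 15.6%) and of none in differentiated cells (all genes 8.13%). The 3 kb distance was chosen after these values were seen.

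The calcitriol VDR site closest to Wnt10b lay 6.00 kb downstream of a start, between genes, with the start of Arf3 nearer at 5.27 kb. It was called with calcitriol in undifferentiated cells, together with RXR and RUNX2, and with neither VDR list after differentiation. Its sequence is shown because it carries a pair of RUNX core matches. Capitals mark TGTGGT on either strand, so a match on the other strand reads ACCACA; all sequences are the forward strand of mm9.

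Wnt10b, chr15:98598818-98599018: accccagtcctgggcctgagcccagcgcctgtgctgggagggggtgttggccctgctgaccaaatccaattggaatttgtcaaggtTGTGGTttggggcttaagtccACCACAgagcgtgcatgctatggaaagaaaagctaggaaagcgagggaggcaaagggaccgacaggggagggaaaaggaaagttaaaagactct

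Of all calcitriol VDR sites in undifferentiated cells, 33.7% held TGTGGT on either strand, and 15.3% of flanking windows of the same width placed 2 kb to either side did. Among the 37 sites near Wnt and receptor genes 8 held it, or 21.6% (exact Clopper-Pearson 95% interval 9.83 to 38.2). The other VDR sites of the Wnt10b stretch lay near other starts: 1 in an intron of Ccdc65, with all 4 factors, and 1 at 0.999 kb from the start of Mll2.

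Wnt6 (chr1:74818466-74831893) and Wnt10a (chr1:74838090-74850753) are neighbours on chromosome 1, and both encode ligands of the beta-catenin route. In undifferentiated cells each window held 1 VDR site with vehicle and 3 with calcitriol, 5 RXR sites with vehicle and 7 with calcitriol, 4 C/EBPβ sites and 5 RUNX2 sites. In differentiated cells each held no VDR site, 4 RXR sites with vehicle and 5 with calcitriol, 3 C/EBPβ sites and 5 RUNX2 sites. The RUNX2 sites were thus kept, all 5 in both states, while the VDR sites were not called after differentiation. The 3 calcitriol VDR sites lay 15.9, 16.3 and 25.5 kb downstream of the Wnt10a start, which was the nearest start to each.

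The first of these overlapped the vehicle VDR site, and both it and the one at 16.3 kb coincided with RXR, C/EBPβ and RUNX2. It is shown as the closer to the Wnt10a start of these 2 sites with all 4 factors. The window of the calcitriol site held neither TGTGGT nor TTGCNNAA, a C/EBP core, on either strand, and no match to the DR3 element (a direct repeat spaced by 3 bases that VDR and RXR bind) with at most 1 mismatch, so it has no capitals. The overlapping vehicle VDR window, which is shifted along the sequence, did hold TGTGGT.

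Wnt10a, chr1:74853866-74854066: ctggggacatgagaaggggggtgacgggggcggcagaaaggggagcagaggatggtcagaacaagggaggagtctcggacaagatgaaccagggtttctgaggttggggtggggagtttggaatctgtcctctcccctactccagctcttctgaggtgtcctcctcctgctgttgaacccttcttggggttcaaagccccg

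A calcitriol VDR site in both states was found in the windows of 3 ligand genes: Wnt2b, Wnt8b and Wnt16. Wnt16 (chr6:22238227-22250409) encodes a ligand that protects cortical bone. Its window held 1 VDR site with vehicle and 1 with calcitriol, 1 RXR site with vehicle and 2 with calcitriol, 1 C/EBPβ and 2 RUNX2 sites in undifferentiated cells. In differentiated cells it held no vehicle and 1 calcitriol VDR site, 1 vehicle and no calcitriol RXR site, 2 C/EBPβ sites and no RUNX2 site. Its VDR site, however, lay 67.9 kb downstream and at 0.0180 kb from the start of Fam3c.

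Wnt2b (chr3:104747723-104764627) encodes a ligand of the beta-catenin route. Its window held 2 vehicle and 3 calcitriol VDR sites, no vehicle and 2 calcitriol RXR sites, 3 C/EBPβ sites and 1 RUNX2 site in undifferentiated cells. Following differentiation it held no vehicle and 1 calcitriol VDR site, no vehicle and 1 calcitriol RXR site, 1 C/EBPβ and 1 RUNX2 site. The VDR site found in both states lay 96.6 kb from Wnt2b and at 0.00700 kb from the start of St7l. A VDR site closer to the ligand, 6.37 kb upstream, was called in undifferentiated cells with calcitriol and in no other VDR list.

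Wnt8b (chr19:44567962-44588763), a ligand gene best known from the forebrain, was the sole gene of the 32 with VDR in all 4 VDR lists, with 1 site in each. It also had 1 RXR site in each of the 4 RXR lists, 2 C/EBPβ sites and 1 RUNX2 site in undifferentiated cells, and 1 C/EBPβ site and no RUNX2 site in differentiated cells. The VDR site lay 69.3 kb downstream of Wnt8b and within 0.111 kb of the start of Hif1an in every list. No mark lay over a start of Wnt2b, Wnt8b or Wnt16 in either state. The lasting VDR sites in the windows of these 3 ligands thus lay within 1 kb of the starts of other genes.

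The remaining ligand genes had between 0 and 2 calcitriol VDR sites in undifferentiated cells and none in differentiated cells. Wnt4, which acts in kidney and gonad as well as bone, had 2, at 45.7 and 65.0 kb upstream, and Wnt7b, a ligand that promotes bone formation, had 1 at 54.3 kb. Wnt11 had 1 at 37.1 kb upstream and Wnt8a 1 at 16.2 kb downstream. Wnt4, Wnt8a and Wnt11 were each the nearest start to those sites. Wnt3a and Wnt9a, with 6 and 4 RUNX2 sites in undifferentiated and 4 and 3 in differentiated cells, had no VDR site in any list. The same held for Wnt5a, the best known ligand of Ror2, and for Wnt5b and Wnt7a; Wnt5b went from 4 RUNX2 sites to none while its C/EBPβ count was 4 in both states.

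Among the Frizzled receptors, Fzd1 and Fzd2 were the genes with VDR at their own promoters, in undifferentiated cells. The share of all genes with VDR within 1 kb of a start was not computed. Fzd2 (chr11:102465745-102469372) encodes a receptor used in both beta-catenin and other Wnt routes. Its window held 1 VDR site with vehicle and 2 with calcitriol, 5 RXR sites with vehicle and 4 with calcitriol, 4 C/EBPβ and 7 RUNX2 sites in undifferentiated cells. After 15 days of differentiation it held no VDR site, 4 RXR sites with vehicle and 4 with calcitriol, 2 C/EBPβ and 2 RUNX2 sites. The promoter site lay within 1 kb of the start and was called for VDR under vehicle and calcitriol, in undifferentiated cells, together with RXR, C/EBPβ and RUNX2. In differentiated cells RXR was still called at this promoter site under both treatments, and VDR, C/EBPβ and RUNX2 were not. A separate C/EBPβ site, 0.763 kb from the Fzd2 start in undifferentiated cells, was called again in differentiated cells, at 0.759 kb.

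Fzd1 (chr5:4753842-4758216) encodes a close relative of Fzd2. Its window held 1 VDR site with vehicle and 1 with calcitriol, 1 RXR site with vehicle and none with calcitriol, 2 C/EBPβ and 2 RUNX2 sites in undifferentiated cells. In differentiated cells it held no VDR site, 1 RXR site with vehicle and 2 with calcitriol, 2 C/EBPβ sites and 1 RUNX2 site. The VDR site lay 0.100 kb downstream of the start, inside the transcribed region, where it overlapped an annotated UTR. Fzd7, the third of this subgroup, had 1 VDR site in undifferentiated cells, with calcitriol, 26.4 kb downstream.

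Fzd6 (chr15:38837879-38869732), a receptor of the planar polarity route, had the most calcitriol VDR sites of the 32 genes. Its window held no vehicle and 5 calcitriol VDR sites, 2 RXR sites under each treatment, 7 C/EBPβ and 2 RUNX2 sites in undifferentiated cells. Following differentiation it held no VDR site, no vehicle and 1 calcitriol RXR site, 6 C/EBPβ sites and no RUNX2 site. The 5 VDR sites were spread from 86.4 kb upstream to 71.6 kb downstream, and Fzd6 was the nearest start to 1 of them, 17.6 kb upstream. The other 4 were nearer to Baalc or to Cthrc1.

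Fzd5 (chr1:64777134-64784324), a receptor close in sequence to Fzd8, had no vehicle and 3 calcitriol VDR sites, 2 RXR sites under each treatment, 5 C/EBPβ and 4 RUNX2 sites in undifferentiated cells. After 15 days of differentiation it had no VDR site, 2 vehicle and 5 calcitriol RXR sites, 6 C/EBPβ and 2 RUNX2 sites. Fzd5 was thus among the genes with more calcitriol RXR sites after differentiation, although no VDR site was called there. The VDR sites at 80.1 and 88.7 kb upstream lay in an intron of Plekhm3 but had the Fzd5 start as the nearest.

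Fzd8 (chr18:9212854-9216199) had no vehicle and 2 calcitriol VDR sites, 1 vehicle and 2 calcitriol RXR sites, 3 C/EBPβ and 2 RUNX2 sites in undifferentiated cells. In differentiated cells it had no VDR site, no vehicle and 1 calcitriol RXR site, 3 C/EBPβ sites and 1 RUNX2 site. Both VDR sites lay upstream, at 21.7 and 22.1 kb, with Fzd8 as the nearest start. The site at 22.1 kb matched DR3 with 1 mismatch, and the site at 21.7 kb carried all 4 factors.

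Fzd9 (chr5:135724808-135727100), whose loss reduces bone formation in mice, was the Frizzled gene with a calcitriol VDR site in both states. It had no vehicle and 2 calcitriol VDR sites, 1 vehicle and 2 calcitriol RXR sites, 3 C/EBPβ and 3 RUNX2 sites in undifferentiated cells. Following differentiation it had no vehicle and 1 calcitriol VDR site, 2 vehicle and 4 calcitriol RXR sites, 3 C/EBPβ and 3 RUNX2 sites. The lasting site lay 91.2 kb downstream, in an exon of Tbl2, and matched DR3 with 1 mismatch. The match is shown in capitals within 27 bases of the site, as the only DR3 match found among the 5 sites of differentiated cells.

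Fzd9 window, in Tbl2, chr5:135635895-135635921: accctaGGGTCACCAGGGACAaattgc

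DR3 matches with at most 1 mismatch were found in 2 of the 37 VDR sites near these genes (5.41%, interval 0.661 to 18.2), against 14.8% of all VDR sites of undifferentiated cells and 1.18% of flanking windows. The interval for these genes includes the value for all sites. No match says only that these letters are not in the window of the site.

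Fzd3, a planar polarity receptor, and Fzd4, which also receives Norrin, had no VDR site in any list. Fzd3 had 1 calcitriol RXR, 1 C/EBPβ and 1 RUNX2 site in undifferentiated cells. Fzd4 had 3 C/EBPβ sites in undifferentiated cells and 2, with 1 calcitriol RXR site, in differentiated cells.

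Among the kinase-type receptors, Ryk (chr9:102737250-102810637), an atypical tyrosine kinase-related receptor, was the most occupied. Its window held no vehicle and 3 calcitriol VDR sites, 6 RXR sites with vehicle and 7 with calcitriol, 12 C/EBPβ and 6 RUNX2 sites in undifferentiated cells. After 15 days of differentiation it held no VDR site, 2 RXR sites with vehicle and 4 with calcitriol, 7 C/EBPβ and 3 RUNX2 sites. Every Ryk site of differentiated cells was also called in undifferentiated cells in the list of the same factor and treatment. All 3 VDR sites carried RXR, C/EBPβ and RUNX2 as well.

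The Ryk site in its own intron, 7.77 kb from the start, is shown as a site with all 4 factors inside a receptor gene. Capitals mark a match to TTGCNNAA on the reverse strand. This motif was found in 11.6% of all calcitriol VDR sites of undifferentiated cells and in 8.34% of flanking windows.

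Ryk, chr9:102744920-102745120: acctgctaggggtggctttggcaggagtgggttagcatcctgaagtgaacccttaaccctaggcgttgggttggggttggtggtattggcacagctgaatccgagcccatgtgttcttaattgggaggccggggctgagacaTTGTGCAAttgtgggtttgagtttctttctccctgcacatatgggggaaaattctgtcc

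Ror2 (chr13:53204681-53381493), the receptor of Wnt5a, had no vehicle and 2 calcitriol VDR sites, no vehicle and 2 calcitriol RXR sites, 2 C/EBPβ sites and 1 RUNX2 site in undifferentiated cells. In differentiated cells it had no vehicle and 1 calcitriol VDR site, 1 vehicle and 2 calcitriol RXR sites, 2 C/EBPβ sites and no RUNX2 site. The lasting VDR site lay in a Ror2 intron, 18.2 kb downstream of the nearest Ror2 start. Among the 5 VDR sites of differentiated cells it was the one whose nearest start belongs to a gene of this list, and its sequence is shown for that reason. Capitals mark TGTGGT on the reverse strand.

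Ror2, chr13:53352724-53352924: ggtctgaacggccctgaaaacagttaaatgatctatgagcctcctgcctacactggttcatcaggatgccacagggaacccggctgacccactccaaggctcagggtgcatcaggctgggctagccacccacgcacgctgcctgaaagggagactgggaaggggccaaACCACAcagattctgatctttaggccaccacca

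Ror1, a relative of Ror2, had no VDR and no RXR site within 100 kb of its 1 annotated start in any list. The gene spans 349 kb, so the part of its body beyond this window was not searched. Its window held 1 C/EBPβ and 1 RUNX2 site in undifferentiated cells and 2 and 1 in differentiated cells.

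**Figure D3:**
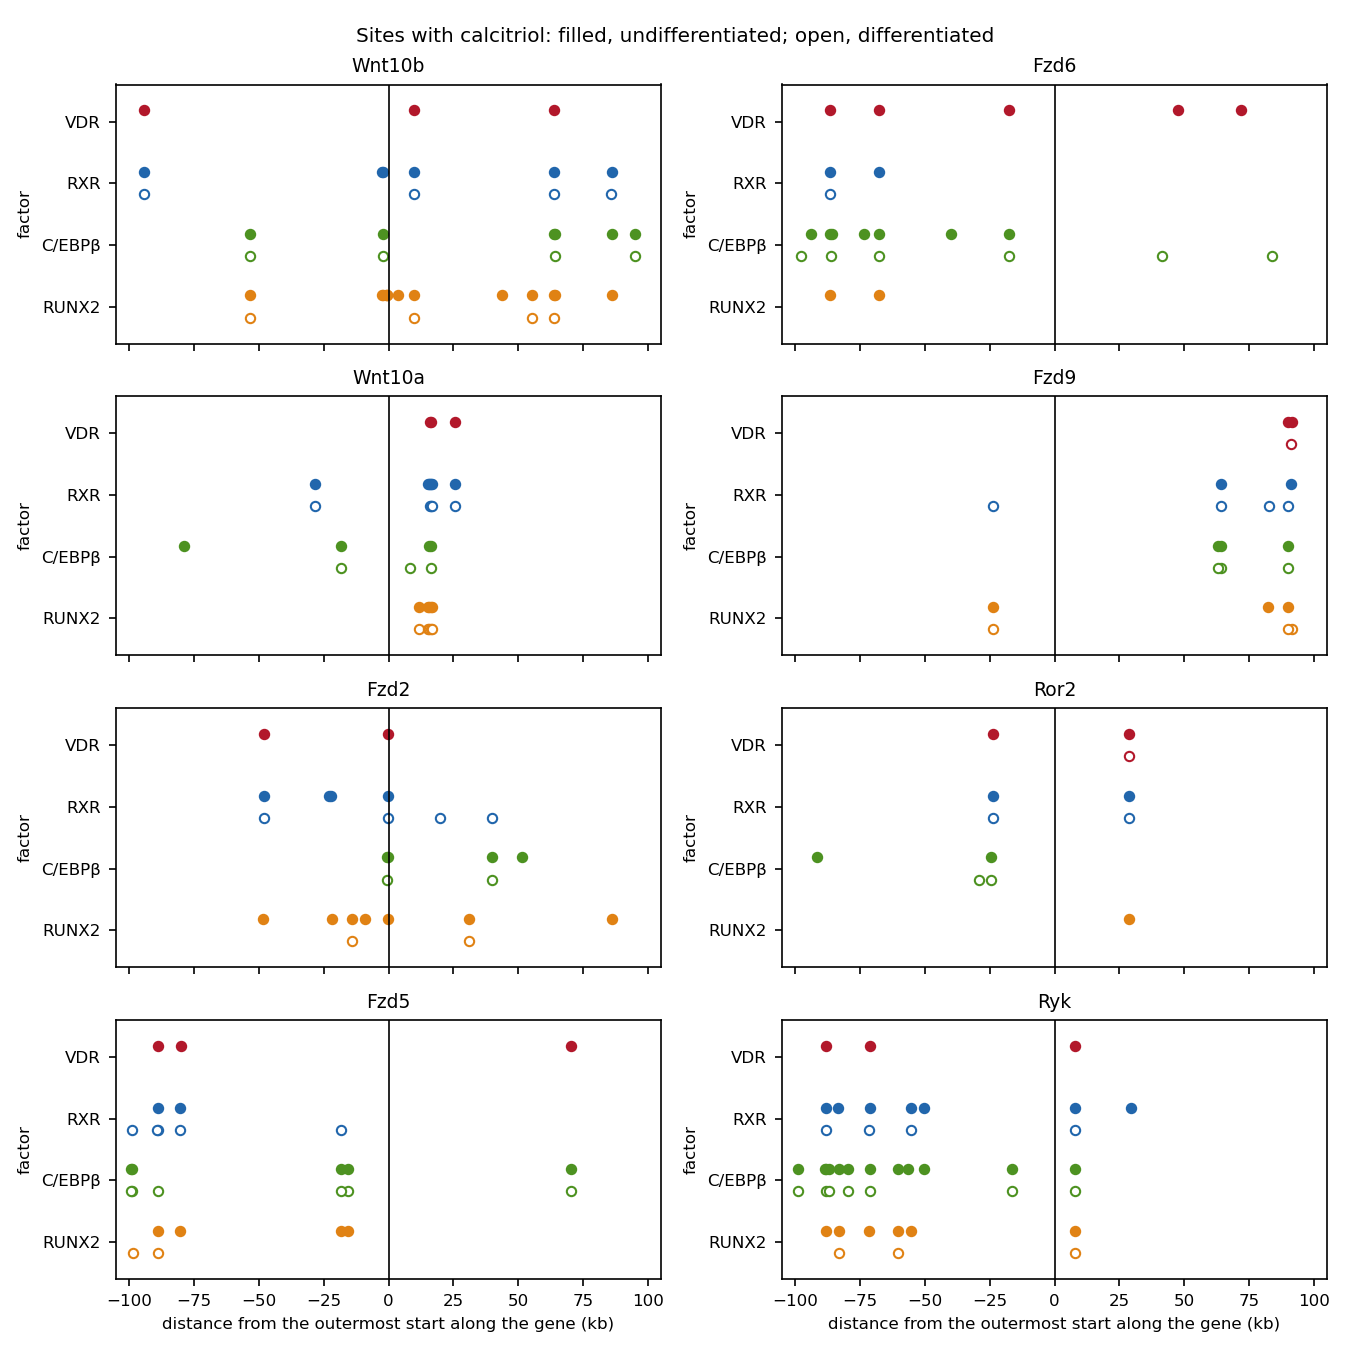
Position of calcitriol sites along 8 genes, chosen after the values were seen, as distance in kb from the outermost annotated start (x axis) for VDR, RXR, C/EBPβ and RUNX2 (y axis); filled points are undifferentiated and open points differentiated cells. VDR points are filled in all 8 panels and open in those of Fzd9 and Ror2; distances at genes with several starts can differ from those in the text, which use the nearest start.

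Calcitriol was compared with vehicle for VDR and RXR. In undifferentiated cells 17 of the 32 genes had more VDR sites with calcitriol (all genes 32.9%) and 0 had fewer (all genes 1.33%). The number of separate VDR sites near these genes went from 9 to 37, a ratio of 4.11 where the whole lists differed by 7.47, and 8 of the 9 vehicle sites were called again. Fzd1, Wnt8b and Wnt16 had 1 site under both treatments. In differentiated cells 4 genes had more VDR sites with calcitriol (Wnt2b, Wnt16, Fzd9 and Ror2; all genes 6.88%) and 0 had fewer (all genes 0.149%), and separate sites went from 1 to 5.

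For RXR in undifferentiated cells, 10 genes had more calcitriol than vehicle RXR sites (all genes 15.0%) and 5 had fewer, Wnt1, Wnt10b, Fzd1, Fzd2 and Fzd7 (all genes 17.7%), with 52 separate sites under vehicle and 58 under calcitriol. This imbalance was not kept in other windows. At 20 kb, 7 genes had more (all genes 6.15%) and 7 fewer (7.27%). At 50 kb the counts were 8 (10.3%) and 8 (12.3%), and at 200 kb 10 (20.5%) and 11 (24.0%). In differentiated cells 18 genes had more (all genes 26.9%) and 1, Wnt16, had fewer (all genes 4.18%), with 26 and 47 separate sites. Of the 26 vehicle sites, 23 were called again with calcitriol. The ratio of 1.81 near these genes lay beside 1.69 for the whole lists.

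Differentiated and undifferentiated cells were compared list by list. With calcitriol, VDR sites were fewer after differentiation at 18 genes (all genes 36.1%) and more at 0 (all genes 0.320%), with 37 and 5 separate sites, a ratio of 0.135 beside 0.124 for the whole lists. All 5 sites of differentiated cells were also called in undifferentiated cells. With vehicle, VDR sites were fewer at 8 genes (all genes 11.9%) and more at 0 (all genes 0.207%).

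RUNX2 sites were fewer at 19 genes after differentiation (all genes 42.1%) and more at 1, Fzd7 (all genes 8.73%). Separate RUNX2 sites went from 77 to 39, a ratio of 0.506 where the whole lists differed by 0.659, and 26 were called in both states. Fzd7 (chr1:59538991-59543791), a receptor of the beta-catenin route found in progenitor cells, went from 3 to 6 RUNX2 sites, and none of the 3 was called again. Its C/EBPβ sites numbered 6 and 8, with 5 of the 6 called again.

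C/EBPβ sites were fewer at 16 genes (all genes 32%) and more at 5, Wnt8a, Wnt16, Fzd5, Fzd7 and Ror1 (all genes 15.1%), with 82 and 66 separate sites. RXR sites with calcitriol were fewer at 15 genes and more at 6, Wnt3a, Fzd1, Fzd4, Fzd5, Fzd7 and Fzd9 (17.8% of all genes in each direction), with 58 and 47 separate sites. Of these 6 genes, 5 encode Frizzled receptors, while Fzd3, Fzd6 and Fzd8 were among the 15 with fewer. The ratio of separate sites was 0.810, beside 1.07 for the whole lists. This comparison was not recomputed in other windows. RXR sites with vehicle were fewer at 17 genes (all genes 29.1%) and more at 2, Fzd9 and Ror2 (all genes 7.03%).

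H4K5ac, H3K9ac, H3K4me1 and H3K4me3 lay over a larger share of Frizzled and kinase-type receptor starts than of ligand starts in both states, and H3K36me3 did not follow this order. H4K5ac and H3K9ac mark active starts and enhancers, H3K4me3 marks active starts, H3K4me1 marks enhancers and the edges of starts, and H3K36me3 covers the bodies of transcribed genes. In undifferentiated cells H4K5ac lay over a start of 19 of the 32 genes (all genes 53.6%), H3K9ac of 17 (49.7%), H3K4me1 of 18 (52.9%), H3K4me3 of 11 (35.1%) and H3K36me3 of 4 (28.0%). In differentiated cells the counts were 19 (53.4%), 18 (51.5%), 20 (55.6%), 12 (42.4%) and 2 (25.8%). The shares of the marks other than H3K36me3 lay near the background. For H3K36me3 the background depends on which starts are used: these genes have a median of 1 annotated start and all genes 2, and with starts of protein-coding transcripts alone the background was 18.5% and 15.6% beside the same 4 and 2 genes.

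H3K4me3 was found over a start of 3 of 19 ligand genes, Wnt5a, Wnt6 and Wnt10b, in both states. It was found over 5 of 10 Frizzled genes in undifferentiated cells (Fzd1, Fzd2, Fzd5, Fzd7 and Fzd8), over 6 in differentiated cells, and over all 3 kinase-type receptor genes in both. No mark lay over a start of 12 genes in either state: Wnt2, Wnt2b, Wnt3, Wnt3a, Wnt7a, Wnt7b, Wnt8a, Wnt8b, Wnt9b, Wnt16, Fzd3 and Fzd10. Wnt5a and Wnt10b had all 5 marks in both states. Wnt4 had H3K4me1 alone, and Wnt1 had H4K5ac and H3K4me1 in both states.

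Acetylation without H3K4me3 was found at 6 of the 17 H3K9ac-marked genes in undifferentiated cells (Wnt5b, Wnt9a, Wnt10a, Wnt11, Fzd4 and Fzd6), against 29.8% of all H3K9ac-marked genes. In differentiated cells it was found at 6 of 18, with Fzd9 in the place of Fzd6, against 17.7%.

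**Figure D4:**
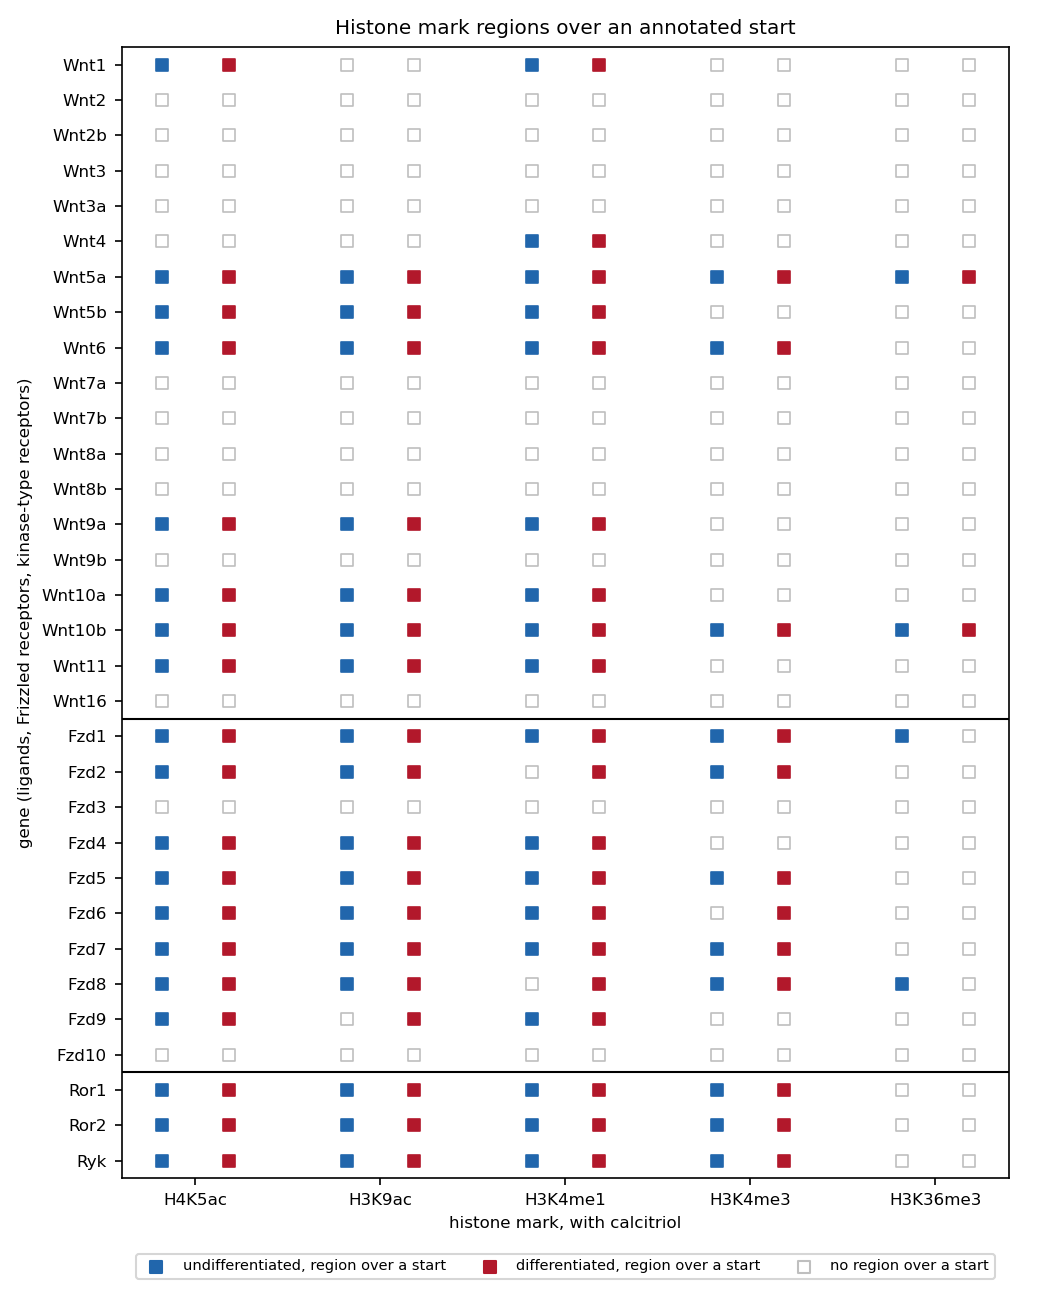
Histone mark regions over an annotated start for the 32 genes (rows) and 5 marks (columns) with calcitriol; filled squares are regions in undifferentiated (blue) and differentiated (red) cells and open squares no region. The squares of the 2 states differ at Fzd1, Fzd2, Fzd6, Fzd8 and Fzd9, all Frizzled genes.

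Few starts changed their mark call between states, and those that did were Frizzled genes. No gene gained or lost H4K5ac (all genes 1.61% and 1.79%). H3K9ac was gained at Fzd9 (all genes 2.09%) and lost at none (0.270%). H3K4me1 was gained over the starts of Fzd2 and Fzd8 (4.32%) and lost at none (1.62%). In undifferentiated cells H3K4me1 already covered 53.1% of the Fzd2 gene body and 56.1% of the Fzd8 gene body, without lying over the start. In differentiated cells it covered 100% of both. H3K4me3 was gained at Fzd6 (8.67%) and lost at none (1.33%). H3K36me3 was gained at none (0.874%) and lost at Fzd1 and Fzd8 (3.09%).

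At Fzd9 the gain went with a wider acetylated stretch: the H4K5ac region over its start was 2.06 kb wide in undifferentiated and 51.5 kb wide in differentiated cells. The H3K4me1 region was 1.86 and 8.97 kb wide, and the gained H3K9ac region 2.29 kb. Fzd6 moved the other way, with an H4K5ac region of 107 kb in undifferentiated and 15.0 kb in differentiated cells, although it gained an H3K4me3 region of 1.27 kb. Over all 19 genes with H4K5ac in both states, 12 regions were narrower after differentiation (all genes 72.6%).

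H3K4me3 regions were narrower in differentiated cells at 10 of the 11 genes marked in both states, as they were at 98.3% of all genes, so narrowing itself is not particular to these genes. The median ratio of widths was 0.331 for these genes and 0.481 for all genes. At Ryk the region went from 23.4 to 2.05 kb and at Fzd7 from 19.9 to 6.33 kb. At Wnt10b it went from 9.63 to 2.12 kb and at Wnt6 from 9.61 to 1.83 kb. Fzd8 was the exception, with 2.09 and 2.40 kb. H3K9ac regions were narrower at 3 of 17 genes (all genes 33.9%) and H3K4me1 regions at 7 of 18 (all genes 57.7%).

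H3K36me3 was also measured along the gene body. It covered more than 50% of the body of 13 of the 32 genes in undifferentiated cells (all genes 41.4%) and of 13 in differentiated cells (all genes 39.3%). These were the same 13 genes in both states: Wnt2b, Wnt5a, Wnt6, Wnt10a, Wnt10b, Fzd1, Fzd2, Fzd5, Fzd6, Fzd7, Fzd8, Fzd9 and Ryk. They include 5 of 19 ligands and 7 of 10 Frizzled receptors. At Fzd8 the covered share was 100% and 68.4%, at Fzd1 100% and 83.7%, and at Wnt10b 96.5% and 94.3%, in undifferentiated and differentiated cells. Wnt2b, with 69.2% and 68.1%, had this mark in its body without any mark over its start. Ror1 and Ror2 were covered in part, with 20.2% and 27.0% in undifferentiated and 13.1% and 19.9% in differentiated cells.

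**Figure D5:**
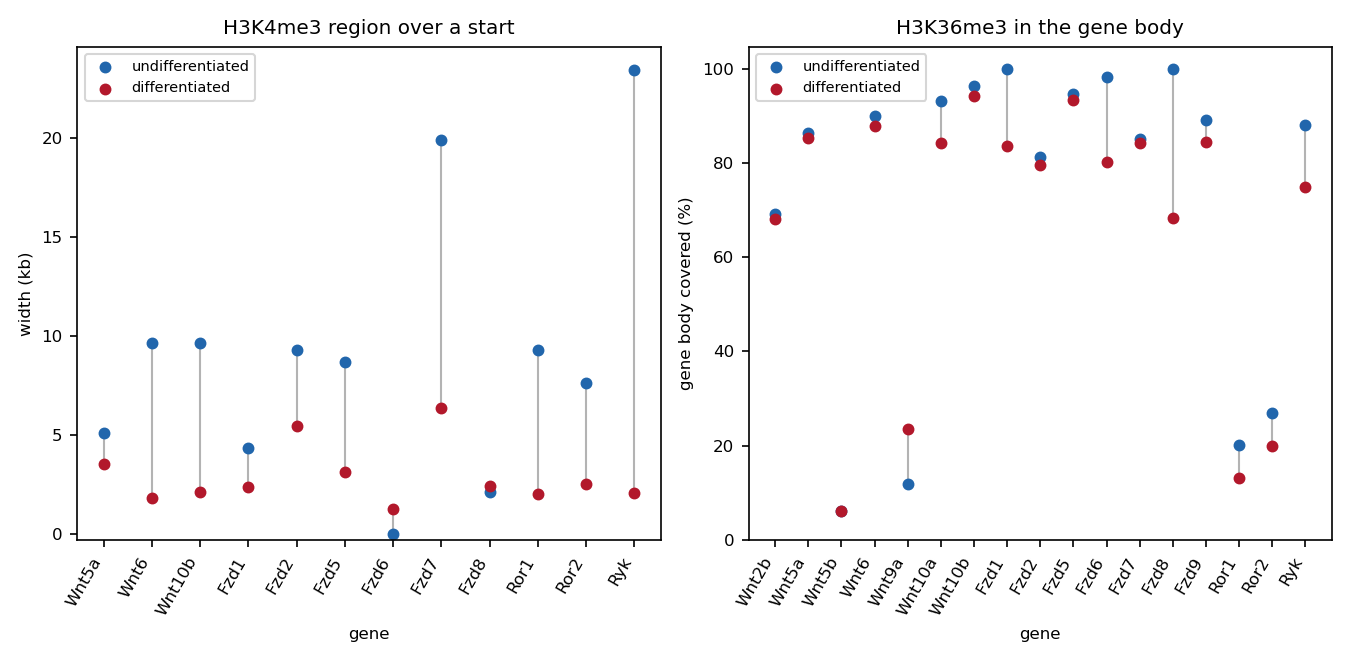
Left, width in kb of the H3K4me3 region over a start for the 12 genes with one in either state; right, percent of the gene body covered by H3K36me3 for the 17 genes with any, in undifferentiated (blue) and differentiated (red) cells. Widths are smaller in differentiated cells at 10 of the 11 genes marked in both states, with Ryk going from 23.4 to 2.05 kb, and body coverage keeps the same 13 genes above 50%.

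The calcitriol VDR sites near these genes in undifferentiated cells were described by what else was called at them. Of the 37 sites, 28 overlapped an RXR site, or 75.7% (exact Clopper-Pearson 95% interval 58.8 to 88.2), beside 60.0% of all VDR sites. RUNX2 overlapped 22, or 59.5% (42.1 to 75.2, all sites 54.0%), and C/EBPβ 14, or 37.8% (22.5 to 55.2, all sites 44.1%). H4K5ac and H3K4me1 regions overlapped all 37 (all sites 97.6% and 96.3%), and H3K4me3 regions 12, or 32.4% (18 to 49.8, all sites 20%). The intervals cover counting error only, and the 4 given for RXR, RUNX2, C/EBPβ and H3K4me3 include the value for all sites.

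Intron sites were fewer: 6 of the 37 lay in an intron, or 16.2% (interval 6.19 to 32), beside 33.5% of all VDR sites. Between genes lay 20, or 54.1% (36.9 to 70.5, all sites 49.7%). The 37 sites were taken within 100 kb of the starts of these genes, whereas all VDR sites have no distance limit. The shares by place are thus not like for like, and the difference was not tested. The median distance from a site to the nearest start of one of the 32 genes was 48.1 kb for calcitriol VDR and 25.9 kb for calcitriol RXR in undifferentiated cells. For 18 of the 37 VDR sites, and for 35 of the 58 calcitriol RXR sites, the nearest start of any gene belonged to a Wnt or receptor gene. Within 1 kb of a start, VDR was found at Fzd1 and Fzd2 and at no other of the 32 genes. The share of all genes with VDR this close was not computed, so this count has no background. Both promoters also had a vehicle VDR site, and 64.2% of all vehicle VDR sites of undifferentiated cells lay within 1 kb of a start.

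Overlapping calcitriol sites of the 4 factors were then joined into regions. Undifferentiated cells had 157 such regions near these genes, of which 10 held all 4 factors, or 6.37% (interval 3.10 to 11.4), beside 6.02% of all regions. They lay around Ryk (3 regions), Wnt6 and Wnt10a (2), Fzd6 (2), Fzd2, Fzd8 and the Wnt1 and Wnt10b stretch (1 each). Differentiated cells had 123 regions and 0 with all 4 factors, which allows a share of up to 2.95%, beside 0.631% of all regions. Of the 5 VDR sites of differentiated cells, 2 overlapped calcitriol RXR (all VDR sites 66.0%), 1 RUNX2 (33.5%) and 0 C/EBPβ (30.7%).

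The other genes of the pathway were taken from a list of 52 co-receptors, secreted inhibitors, intracellular components and transcription factors. Of these, 34 had a calcitriol VDR site in undifferentiated cells (65.4%) and 14 in differentiated cells (26.9%), beside 40.9% and 12.1% of all genes. VDR sites were more numerous with calcitriol than with vehicle at 32 of the 52 in undifferentiated cells (all genes 32.9%). In differentiated cells they were more numerous at 12 (6.88%). They were fewer with calcitriol at 1 (1.33%) and 0 (0.149%). After differentiation calcitriol VDR sites were fewer at 29 (all genes 36.1%) and more at 0 (0.320%). RUNX2 sites were fewer at 30 (42.1%) and more at 5 (8.73%).

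The pathway genes with the most calcitriol VDR sites in undifferentiated cells included Tcf7l1 and Tcf7l2, which encode transcription factors that work with beta-catenin, the co-receptor genes Lrp5 and Lrp6, and the inhibitor genes Axin2 and Sfrp2. They had 10, 9, 8, 6, 5 and 3 such sites, in that order, and 3, 2, 1, 1, 0 and 1 in differentiated cells. Sfrp2 tied at 3 with Lgr6, Lrp4, Nkd1, Vangl1 and Wif1 and was taken for its larger number of calcitriol RXR sites. Lrp5, the co-receptor whose variants change bone mass, thus had more calcitriol VDR sites than any of the 32 ligand and receptor genes, of which Fzd6 had the most with 5. A gene with starts far apart has a wider window, and the window widths of these pathway genes were not compared.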

How the data were processed

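The 32 genes and the other lists were chosen with earlier results of these data known. Per the submitters' processing notes, the authors used Bowtie, HOMER and genome build mm9; versions and settings: not given in the sources used here. The series' design text says that replicates were made and examined separately, and the deposited lists name merged peaks, between 70.4% and 99.6% of them merged from 2; each list was used as 1 sample, and p-values were not computed. The deposited score column held 0 in the factor lists, whose sites all have 1 width; no source used here says what the authors' score measures in the histone lists, and it served to leave out the lowest 25% in 1 alternative.

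Regions on chromosomes 1 to 19 and X were placed on NCBIM37 (mm9) with GENCODE vM1, in which 142 gene records sharing a symbol were merged, leaving 22208 protein-coding genes. Sites were shared when overlapping by at least 1 bp. Scripts in Python 3.11.15 (numpy 2.4.6, scipy 1.17.1, pysam 0.24.0 and matplotlib 3.10.9) were tested on simulated data. Depth is unknown, so no value has a limit from counts of reads. Genes were named in full when they had calcitriol VDR sites in both states, then by VDR sites in undifferentiated cells up to 12 genes, then when a mark over a start differed between states; the sequences other than the DR3 match, and genes given beyond this rule, were chosen after values were seen. The alternatives were windows of 20, 50 and 200 kb, nearest start alone, starts of protein-coding transcripts, regions merged from 2 or more peaks, marks within 1 kb, a larger overlap and exact DR3 matches. Counting neighbours once was added after the data were seen. The sequence of 1 site is not reported here.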

Additional observations from a re-analysis of the deposited data

Results flagged for a closer look

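Calcitriol went with fewer RXR sites in one state and more in the other at 5 of the 32 genes, beside 8.90% of all protein-coding genes; the differences between states were not tested, since each count comes from 1 list. At Wnt1 the change was -2 in undifferentiated cells (8 sites with vehicle, 6 with calcitriol) and 1 in differentiated cells (3 and 4). Wnt10b, which shares these sites, had the same changes of -2 and 1. At Wnt16 it was 1 in undifferentiated cells (1 and 2 sites) and -1 in differentiated cells (1 and 0). Fzd1 had -1 (1 and 0) and 1 (1 and 2), and Fzd7 had -2 (4 and 2) and 2 (1 and 3).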

How the results depend on the processing

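Of 231 values recomputed under an alternative, 176 stayed within 1.5 times their value, or within the interval for shares, and 55 moved beyond it. No count for these genes moved with starts of protein-coding transcripts (41 values) or neighbouring genes counted once (22), the last chosen after seeing the data. Counting neighbours once joins 4 pairs of genes, so a count can fall by at most 4. The larger of these 22 counts therefore could not move beyond 1.5 times. Every region was merged from 2 or more peaks, so that alternative left out no region. Its 26 values, counted among the 176, could not move. With an overlap of at least 50% of a site, the 6 shares stayed within their wide intervals. In undifferentiated cells the share of VDR sites with C/EBPβ went from 37.8% to 24.3%. The share with RUNX2 went from 59.5% to 45.9%, and that with RXR from 75.7% to 70.3%. In differentiated cells these shares were unchanged. No paired analysis was possible because each antibody, state and treatment has 1 list. Depth is unknown, and the lists give no spread between cultures, so no value here carries an error over cultures. The background moved where the count did not for H3K36me3 over a start, from 28.0% to 18.5% and from 25.8% to 15.6% of all genes with starts of protein-coding transcripts.

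With a window of 20 kb, the genes with a site in undifferentiated cells numbered 3 for VDR with vehicle (all genes 5.65%), 9 for VDR with calcitriol (15.5%), 13 for RXR with vehicle (18.6%), 15 for RXR with calcitriol (18.1%), 14 for C/EBPβ (33.0%) and 15 for RUNX2 (30%). In differentiated cells they numbered 0 (2.16%), 1 (3.85%), 6 (12.5%), 12 (17.8%), 12 (28.6%) and 8 (18.8%) in the same order. In that window 7 genes had more VDR sites with calcitriol in undifferentiated cells (all genes 11.3%) and 1 in differentiated cells (1.87%). More RXR sites with calcitriol were found at 7 in differentiated cells (9.56%). After differentiation, VDR sites were fewer at 8 genes (12.8%). RUNX2 sites were fewer at 10 (19.9%) and more at 0 (4.55%), and C/EBPβ sites fewer at 5 (13.7%) and more at 2 (6.73%).

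With a window of 50 kb, vehicle VDR sites lay at 4 genes in undifferentiated (all genes 9.93%) and 0 in differentiated cells (3.90%), calcitriol VDR sites at 1 (7.33%) and vehicle RXR sites at 10 (22.4%) in differentiated cells. VDR was more with calcitriol at 1 gene in differentiated cells (3.88%). RXR was fewer with calcitriol at 8 in undifferentiated (12.3%) and 0 in differentiated cells (3.09%). After differentiation RUNX2 sites were more at 2 genes (7.10%), and C/EBPβ sites fewer at 9 (22.8%) and more at 3 (11.0%). With 200 kb, differentiated cells had VDR at 3 genes with vehicle (10.3%) and 9 with calcitriol (20.3%). RXR was then fewer with calcitriol at 11 genes in undifferentiated (24.0%) and 2 in differentiated cells (4.83%), and RUNX2 more at 2 after differentiation (10.1%).

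With sites given to the nearest start alone, VDR lay at 3 genes with vehicle (3.46%) and 12 with calcitriol (14.7%) in undifferentiated cells, and at 0 (1.08%) and 1 (3.06%) in differentiated cells, with vehicle RXR at 8 (11.4%). VDR was then more with calcitriol at 10 genes in undifferentiated (12.5%) and 1 in differentiated cells (2.06%). RXR was more at 10 (9.56%) and fewer at 0 (1.30%) in differentiated cells. After differentiation RUNX2 was fewer at 12 (16.2%) and more at 0 (4.95%), and C/EBPβ fewer at 8 (12.3%).

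With marks counted within 1 kb of a start, H3K36me3 was at 11 genes (38.6%) and 8 genes (35.1%) in the 2 states. The call then differed between states at 1 gene for H4K5ac (all genes 3.40%) and 3 for H3K4me3 (9.75%). Without the lowest 25% of scores it differed at 2 for H4K5ac (4.30%) and 3 for H3K9ac (3.76%). With exact DR3 matches alone, 0% of the sites near these genes had one in either state.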
